A study of Mus musculus with 10 samples.

Results

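Neutrophils and mast cells, 2 kinds of granule-bearing immune cell, were followed by 10 of their genes through left atrial RNA of adult mice. The neutrophil genes were S100a8 (ENSMUSG00000056054), S100a9 (ENSMUSG00000056071), Csf3r (ENSMUSG00000028859), Retnlg (ENSMUSG00000022651) and Cxcr2 (ENSMUSG00000026180). The mast cell genes were Cpa3 (ENSMUSG00000001865), Kit (ENSMUSG00000005672), Mcpt4 (ENSMUSG00000061068), Cma1 (ENSMUSG00000022225) and Tpsb2 (ENSMUSG00000033825). They were chosen by name, and all 10 were found by their Ensembl identifiers among the 37583 genes of each count file. All 10 passed the filter on low counts that left 15364 genes to be tested. Messenger RNA was counted in 10 libraries. In 1 experiment, 2 libraries labelled as a cardiac knockout of Csk (KO26 and KO337) stood beside 2 untreated wild-type libraries (WT35 and WT338). In the other, 3 libraries came from mice given ibrutinib (IBR1 to IBR3) and 3 from mice given vehicle (CTL1 to CTL3). The strain, the promoter or Cre line behind the knockout, and the dose and length of treatment were not stated in the sources used. Nothing in the labels says that each library came from its own animal, so p-values measure the spread between these libraries, which may be technical.

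Neutrophils are short-lived granulocytes made in bone marrow. They are released under granulocyte colony-stimulating factor, whose receptor is the product of Csf3r, and are drawn into tissue by chemokines that bind the product of Cxcr2. Their cytosol is filled with S100A8 and S100A9, which pair to form calprotectin. Mast cells live in connective tissue, in the heart mainly around vessels and below the epicardium. They depend on the receptor Kit, and store proteases such as carboxypeptidase A3 (Cpa3), chymases (Mcpt4, Cma1) and tryptase (Tpsb2) in granules. Ibrutinib blocks Bruton's tyrosine kinase, which acts below the IgE receptor of mast cells. Csk encodes the kinase that holds Src family kinases inactive. Several of these genes are not limited to 1 cell type: monocytes also make S100a8, S100a9 and Csf3r, and melanocytes also make Kit.

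The promoters of S100a8 and S100a9 are shown because these neighbouring genes varied together more closely than the other pairs of members measured here. That of Cpa3 is shown as an example of a mast cell protease gene. Each runs from 250 bases before to 50 bases after the transcription start, 5′ to 3′ on the gene's own strand, from RefSeq on GRCm38.p6, at chr3:90668821-90669120 on the plus strand for S100a8, chr3:90695672-90695971 on the minus strand for S100a9 and chr3:20242132-20242431 on the minus strand for Cpa3. Capitals mark the motifs searched on both strands: the C/EBP core TTGCNNAA, the GATA core AGATAA and the MITF E-box CATGTG, none of which overlapped another.
S100a8: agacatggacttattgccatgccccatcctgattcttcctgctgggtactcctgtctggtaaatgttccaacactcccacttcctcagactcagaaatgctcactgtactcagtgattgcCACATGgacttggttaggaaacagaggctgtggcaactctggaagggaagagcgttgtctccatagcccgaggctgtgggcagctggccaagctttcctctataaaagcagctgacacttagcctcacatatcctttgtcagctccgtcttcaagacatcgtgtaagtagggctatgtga
S100a9: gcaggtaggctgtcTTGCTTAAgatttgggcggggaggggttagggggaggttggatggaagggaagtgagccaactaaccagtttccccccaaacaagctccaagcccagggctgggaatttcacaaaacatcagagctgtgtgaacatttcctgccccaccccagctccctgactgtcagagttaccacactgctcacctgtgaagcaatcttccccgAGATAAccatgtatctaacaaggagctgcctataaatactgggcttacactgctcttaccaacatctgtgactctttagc
Cpa3: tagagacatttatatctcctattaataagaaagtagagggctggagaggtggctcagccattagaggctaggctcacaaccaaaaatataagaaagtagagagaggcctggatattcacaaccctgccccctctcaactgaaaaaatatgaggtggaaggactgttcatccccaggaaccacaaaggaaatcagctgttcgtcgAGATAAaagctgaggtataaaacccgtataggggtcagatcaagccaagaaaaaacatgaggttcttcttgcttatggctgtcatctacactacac
S100a8 held CATGTG on the minus strand at position -130 from the start, S100a9 held TTGCNNAA at -236 and AGATAA at -30, and Cpa3 held AGATAA at -46. Of 32851 promoters of this length, 10.8% held TTGCNNAA, 11.2% held AGATAA and 14.2% held CATGTG. Of the other members with a promoter in the table, Retnlg held TTGCNNAA at -246, and Csf3r, Cxcr2, Kit, Mcpt4 and Cma1 held none of the 3 motifs. A match describes letters in a window and is no measure of binding.

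The libraries held 14907331 to 19960947 counts on genes, so that 3 counts, the limit set by a count of 0, corresponded to 0.136 to 0.216 CPM (counts scaled to a common library size by trimmed mean of M values, TMM). Csk itself reached 24.7 CPM (KO26) and 35.5 CPM (KO337), while WT35 and WT338 had 18.3 and 17.8 CPM. Such counts, summed over all exons and all cells, show neither a deleted exon nor a loss in muscle cells only, so the direction of each genotype difference below is that of the labels. Atrial muscle RNA was plentiful, with Myl7, the atrial myosin light chain, at 2040 to 8990 CPM. Of 2 genes listed for ventricular muscle, Myl2, the counterpart of Myl7, had 0.148 to 8.62 CPM and Myh7 had 78.1 to 856 CPM. Myh7 was at 705 CPM in KO26 and 856 CPM in WT35, against 149 CPM in KO337 and 291 CPM in WT338. KO337 stood apart in Ptprc, which encodes the common leukocyte antigen CD45. It reached 121 CPM there and 49 CPM in KO26, against 13.8 and 13.5 CPM in WT. Summed monocyte and T cell genes were instead higher in KO26 than in KO337. CTL2 stood apart in red cell RNA, with the globin Hbb-bs at 1410 CPM against 107 and 200 CPM in CTL1 and CTL3. Fewer cells of a type and less RNA per cell cannot be told apart in bulk tissue.

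All 10 genes were scarce. Per kilobase of exon, their median level over the 10 libraries lay between 0.0671 CPM per kb for Cxcr2 and 2.89 CPM per kb for S100a9. The order of the neutrophil genes by this median was S100a9, S100a8 (1.5), Csf3r (0.718), Retnlg (0.536) and Cxcr2. The mast cell genes ranked Kit (0.742 CPM per kb), Cma1 (0.629), Mcpt4 (0.564), Cpa3 (0.42) and Tpsb2 (0.283). Neighbours in both orders had overlapping ranges over the libraries, among them S100a8 with 0.166 to 9.87 and S100a9 with 0.441 to 21.8 CPM per kb, and Csf3r with 0.413 to 3.82 CPM per kb and Retnlg with 0 to 3.04 CPM per kb. Of 67 other genes listed for these cells, 34 passed the filter on low counts, among them Hdc with 897 and Lcn2 with 644 counts over all libraries. Several genes listed for the 2 cell types were close to 0. Over all 10 libraries together, myeloperoxidase (Mpo), a granule gene of immature neutrophils, had 3 counts. The neutrophil surface antigen Ly6g had 5, while the IgE receptor chains Fcer1a and Ms4a2 of mast cells had 7 and 5. The basophil protease Mcpt8 had 1 count and the mast cell tryptase Tpsab1 had 24.

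The neutrophil genes were higher in the libraries labelled KO by estimate, but none of the 5 passed the adjusted test, which 2.21% of all tested genes passed. Csf3r had 5.17 and 13.8 CPM (89 and 304 counts) in the libraries labelled KO and 2.32 and 1.57 CPM (47 and 25 counts) in WT. Both libraries labelled KO lay above both WT libraries, as they did for 26.3% of all tested genes, and KO337 was the highest of all 10. The log2 fold change was 2.27 ± 0.59 (SE), with an unadjusted p of 0.00295 and an adjusted p of 0.0658 in edgeR's quasi-likelihood test with Benjamini-Hochberg adjustment over all tested genes. This gene sat at the threshold: it was called by DESeq2 (log2 2.28, adjusted p = 0.00476), by edgeR with no filter on low counts (log2 2.23, adjusted p = 0.0352) and by edgeR without KO26 (log2 2.81, adjusted p = 0.00403), while without KO337 the estimate was 1.38 (edgeR adjusted p = 0.333), and with the genotype experiment fitted alone it was 2.31 (edgeR adjusted p = 0.324). Of the 50-base stretches of its longest transcript, 11.5% also occur in transcripts of other genes, most of them in AC105061.2. Reads from those stretches can be lost.

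Cxcr2, the chemokine receptor, had 0.58 and 1.22 CPM (10 and 27 counts) in the libraries labelled KO and 0.148 and 0.126 CPM (3 and 2 counts) in WT. These groups did not overlap either, although the WT libraries were at or below the level of 3 counts. The log2 difference was 2.66 ± 1.08 (SE; edgeR unadjusted p = 0.0329, adjusted p = 0.159). Of its 50-base stretches, 6.77% also occur in transcripts of other genes. S100a9 had 2.5 and 4.94 CPM in the libraries labelled KO and 0.742 and 0.377 CPM in WT, again with no overlap, and its log2 difference of 2.7 ± 1.38 (SE) had an edgeR adjusted p of 0.248. Its partner S100a8 overlapped: 1.1 and 4.94 CPM in the libraries labelled KO lay on both sides of the 1.29 CPM of WT35, with 0.503 CPM in WT338. KO337 alone held 81.7% of the summed S100a8 CPM of both libraries labelled KO, and without it the log2 difference of 1.74 ± 1.38 (SE; edgeR adjusted p = 0.46) was 0.25. Retnlg, which encodes resistin-like gamma, a secreted protein of mouse neutrophils, had 2 and 14 counts in the libraries labelled KO and 1 and 0 counts in WT. The ratio of these summed counts, scaled for depth, was 14.7, with a 95% exact interval of 2.28 to 616 that covers counting error only. The edgeR adjusted p for Retnlg was 0.23.

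**Figure D1:**
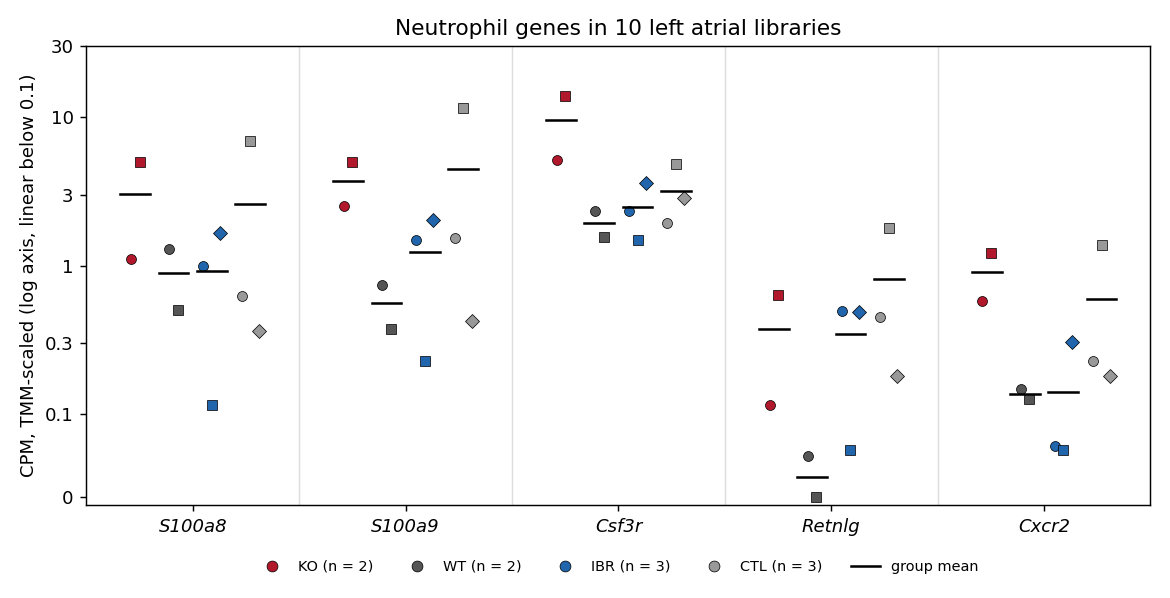
CPM of the 5 neutrophil genes in each library (log axis, linear below 0.1 CPM), with groups in the order KO, WT, IBR and CTL, a bar at each group mean, and a circle, a square and a diamond for the libraries of a group in the order of their numbers. The square of CTL, which is CTL2, is the highest point for S100a8, S100a9, Retnlg and Cxcr2, and both KO points lie above both WT points for every gene but S100a8.

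Against vehicle, the 5 neutrophil genes were lower in ibrutinib libraries by estimate, and for 4 of them this rested on CTL2. None of the 5 was called by edgeR, which called 0% of all tested genes in this comparison. S100a9 had 1.48, 0.23 and 2.02 CPM (24, 4 and 33 counts) in IBR and 1.54, 11.4 and 0.423 CPM (27, 158 and 7 counts) in CTL. The CTL group thus spanned the whole IBR range save its lowest library, and CTL2 exceeded the next CTL library 7.41-fold. The log2 difference of -1.82 ± 1.06 (SE; edgeR unadjusted p = 0.117, adjusted p = 0.823) was 0.33 without CTL2. S100a8 had 0.987, 0.115 and 1.65 CPM in IBR and 0.626, 6.85 and 0.362 CPM in CTL. CTL2 held 87.4% of the summed CTL level of S100a8, and its log2 difference of -1.48 ± 1.16 (SE; edgeR adjusted p = 0.83) was 0.87 without that library.

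Retnlg showed the same library pattern, with 0.493, 0.0574 and 0.489 CPM in IBR against 0.455, 1.8 and 0.181 CPM in CTL. Its log2 difference was -1.19 ± 0.94 (SE; edgeR adjusted p = 0.831), and 0.1 without CTL2. Csf3r differed least, with 2.34, 1.49 and 3.61 CPM in IBR and 1.93, 4.83 and 2.84 CPM in CTL. Here the groups were interleaved, and the log2 difference of -0.36 ± 0.48 (SE; edgeR adjusted p = 0.899) was 0.06 without CTL2. Cxcr2 alone kept its sign: 0.0617, 0.0574 and 0.306 CPM (1, 1 and 5 counts) in IBR stood beside 0.228, 1.37 and 0.181 CPM (4, 19 and 3 counts) in CTL, a log2 difference of -1.97 ± 0.95 (SE; edgeR unadjusted p = 0.0632, adjusted p = 0.823) that was -0.52 without CTL2.

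High levels of these genes went with red cell RNA in CTL2 and with leukocyte RNA in KO337. CTL2, the highest library for 4 of the 5 neutrophil genes, was also highest for Hbb-bs and Alas2. Alas2, the haem synthesis enzyme of red cell precursors, had 60 CPM there against 6.37 and 16.7 CPM in CTL1 and CTL3. The 5 red cell genes found summed to 41.3 to 1010 CPM in the libraries labelled KO, 77.8 to 182 CPM in WT, 462 to 1460 CPM in IBR and 213 to 2420 CPM in CTL. KO337 had the lowest Hbb-bs of all libraries, 29.4 CPM, with high S100a8 and S100a9, while KO26 had 693 CPM. IBR1, IBR2 and IBR3 had Hbb-bs at 686, 220 and 563 CPM, with S100a9 at 1.48, 0.23 and 2.02 CPM. The 4 platelet genes summed to 19.2 to 35.5 CPM in the libraries labelled KO, 20.9 to 31.7 CPM in WT, 14.1 to 32.3 CPM in IBR and 13.8 to 32.4 CPM in CTL, with KO337 highest of all and CTL2 highest among CTL. In KO337, Pf4 made 29.8 CPM of this sum. Ppbp, Itga2b and Gp9 were instead highest of all libraries in CTL2, at 10.2, 9.01 and 2.09 CPM. IBR3 was next for each, at 9.48, 8.87 and 1.96 CPM, while KO337 had 1.13, 4.48 and 0.0906 CPM. The part of blood in the neutrophil values was not tested.

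Summed markers of macrophages, monocytes and T cells stood above WT in both libraries labelled KO, as Ptprc did, while those of B cells and eosinophils overlapped. The 7 macrophage genes summed to 775 to 2990 CPM in the libraries labelled KO against 453 to 498 CPM in WT, although Cd68 and Mrc1 among them overlapped between the groups. The 4 monocyte genes, among them Ly6c2 and Ccr2, summed to 21.7 to 28.9 CPM in the libraries labelled KO and 2.01 to 2.47 CPM in WT, and the 3 T cell genes to 3.98 to 5.92 CPM against 0.445 to 0.943 CPM. The B cell genes summed to 1.63 to 3.49 CPM in the libraries labelled KO and 0.89 to 2.26 CPM in WT, and the eosinophil genes to 0.232 to 1.22 CPM against 0.0989 to 0.692 CPM. Set against Ptprc, Csf3r was not higher: the ratio of their CPM was 0.105 and 0.114 in the libraries labelled KO and 0.169 and 0.117 in WT. In the drug experiment this ratio was 0.349, 0.313 and 0.737 in IBR and 0.723, 0.848 and 0.797 in CTL, with Ptprc at 6.72, 4.77 and 4.89 CPM in IBR and 2.67, 5.69 and 3.56 CPM in CTL. Which leukocytes carried the Csf3r counts was not tested.

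**Figure D2:**
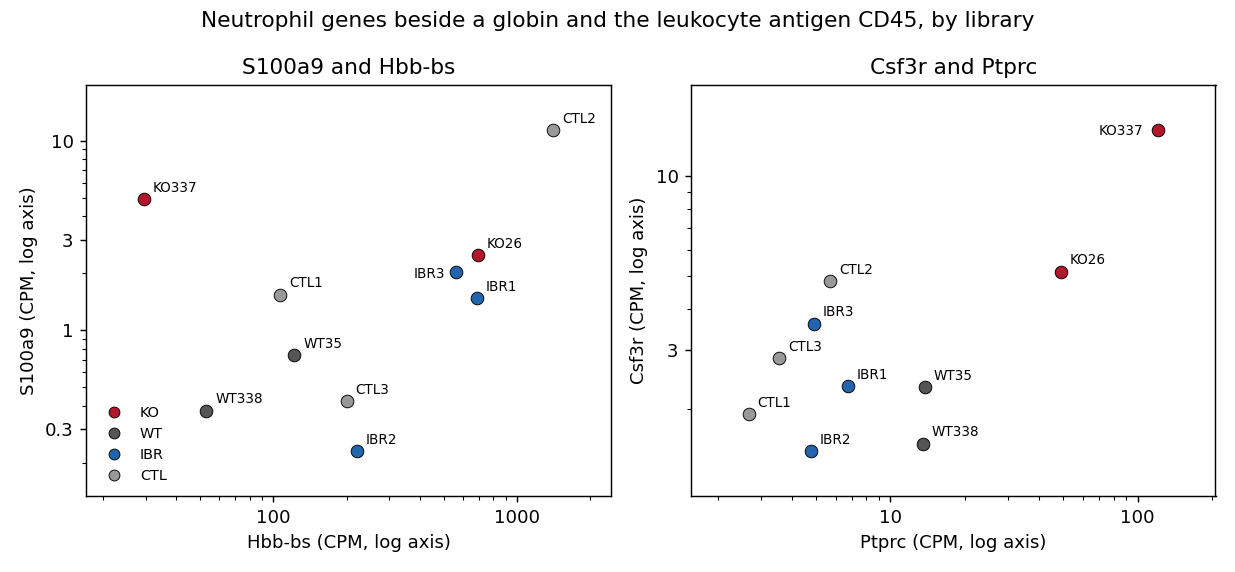
S100a9 against Hbb-bs (left) and Csf3r against Ptprc (right), in CPM on log axes, with 1 point for each library coloured by group. CTL2 lies at the top right of the left panel, KO337 lies at the far left of it at 29.4 CPM of Hbb-bs, and both KO libraries lie at the right end of the right panel at 49 and 121 CPM of Ptprc.

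Kit, the receptor for stem cell factor, was the mast cell gene with the most counts, and its groups did not overlap in either experiment. It had 10.6 and 12.4 CPM (183 and 273 counts) in the libraries labelled KO and 7.52 and 9.75 CPM (152 and 155 counts) in WT, a log2 difference of 0.42 ± 0.25 (SE; edgeR adjusted p = 0.309). In the drug experiment Kit stood at 6.04, 6.32 and 6.91 CPM (98, 110 and 113 counts) in IBR and at 3.93, 3.75 and 5.43 CPM (69, 52 and 90 counts) in CTL. All 3 IBR libraries thus lay above all 3 CTL libraries. The log2 difference of 0.55 ± 0.21 (SE) had an unadjusted p of 0.0241 and an adjusted p of 0.823 in edgeR, and ranged from 0.46 to 0.74 over the fits without 1 library. Of all tested genes, 5.91% had IBR libraries wholly above CTL. The 5 melanocyte genes summed to 49.7 to 61.6 CPM in IBR and 46.7 to 64.1 CPM in CTL, and to 55 to 60.4 CPM in the libraries labelled KO and 32.3 to 42.2 CPM in WT. Nearly all of this was Mlana, while Dct stayed at or below 1.37 CPM, Tyr had 5 counts in all and Tyrp1 had none. Marker genes of more abundant cells were also higher in all 3 IBR libraries than in CTL, among them 3 of 4 fibroblast genes (Pdgfra, Dcn and Tcf21, by 0.84, 0.78 and 0.66 on the log2 scale) and 3 of 7 macrophage genes (Adgre1, Csf1r and Mrc1, by 0.77, 0.74 and 0.57). The 4 fibroblast genes summed to 852 to 1380 CPM in IBR and 599 to 867 CPM in CTL, and the macrophage genes to 339 to 480 CPM in IBR and 257 to 313 CPM in CTL. The 2 endothelial genes overlapped, with sums of 353 to 461 CPM in IBR and 255 to 403 CPM in CTL. They summed to 532 to 771 CPM in the libraries labelled KO and 527 to 705 CPM in WT. The part of these cells in the Kit values was not tested.

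Cpa3, the granule carboxypeptidase, had a positive estimate in both experiments, as Kit did. It had 1.11, 0.632 and 0.673 CPM (18, 11 and 11 counts) in IBR and 0.171, 0.144 and 0.725 CPM (3, 2 and 12 counts) in CTL. CTL3 lay inside the IBR range, and CTL1 and CTL2 lay below it. The log2 difference was 1.18 ± 0.66 (SE; edgeR unadjusted p = 0.101, adjusted p = 0.823), and 2.29 without CTL3 (edgeR adjusted p = 0.326). In the genotype experiment Cpa3 had 0.464 and 1.18 CPM in the libraries labelled KO and 0.643 and 0.377 CPM in WT, which overlapped. The log2 difference of 0.68 ± 0.74 (SE; edgeR adjusted p = 0.596) was -0.17 without KO337. Within a library, the ratio of Kit to Cpa3 CPM ran from 5.44 in IBR1 to 26 in CTL2.

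Mcpt4, the chymase of connective tissue mast cells, had 0.617, 0.632 and 0.917 CPM in IBR, inside the 0.228, 0.504 and 1.15 CPM of CTL (log2 0.2 ± 0.78, SE; edgeR adjusted p = 0.972). In the libraries labelled KO it had 0.174 and 1.9 CPM (3 and 42 counts), the lowest and the highest of all 10 libraries, against 0.791 and 0.44 CPM in WT. KO337 held 91.6% of the summed Mcpt4 CPM of its group, and the log2 difference of 0.76 ± 0.91 (SE; edgeR adjusted p = 0.629) was -1.82 without KO337. Cma1, the other chymase, had 0.679, 0.517 and 0.306 CPM in IBR and 0.284, 0.721 and 0.966 CPM in CTL, with a log2 difference of -0.38 ± 0.57 (SE; edgeR adjusted p = 0.911). It had 0.29 and 0.724 CPM in the libraries labelled KO and 0.94 and 0.692 CPM in WT, the 1 member with a negative estimate there (log2 -0.66 ± 0.66, SE; edgeR adjusted p = 0.565). Of their 50-base stretches, 5.48% for Mcpt4 and 5.38% for Cma1 also occur in transcripts of other genes.

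Tpsb2, a tryptase, had 0.37, 1.03 and 0.55 CPM in IBR and 0.398, 0.504 and 1.39 CPM in CTL, which overlapped (log2 -0.23 ± 0.59, SE; edgeR adjusted p = 0.954). It had 0.348 and 0.679 CPM (6 and 15 counts) in the libraries labelled KO and 0.297 and 0.189 CPM (6 and 3 counts) in WT. These groups did not overlap, and the log2 difference was 1.06 ± 0.82 (SE; edgeR adjusted p = 0.439). CTL3 was the highest CTL library for all 5 mast cell genes, and CTL2 for all 5 neutrophil genes, so the 2 groups of members did not peak in the same vehicle library. Other listed mast cell genes differed from this: Hdc, the histamine-forming enzyme, and the sparse tryptase genes Tpsab1 and Tpsg1 were highest in CTL2 among CTL, at 4.54, 0.432 and 0.721 CPM. Mesothelial genes, a sign of the epicardial surface in the sample, summed to 173, 124 and 271 CPM in CTL1, CTL2 and CTL3. Their part in the mast cell values was not tested.

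**Figure D3:**
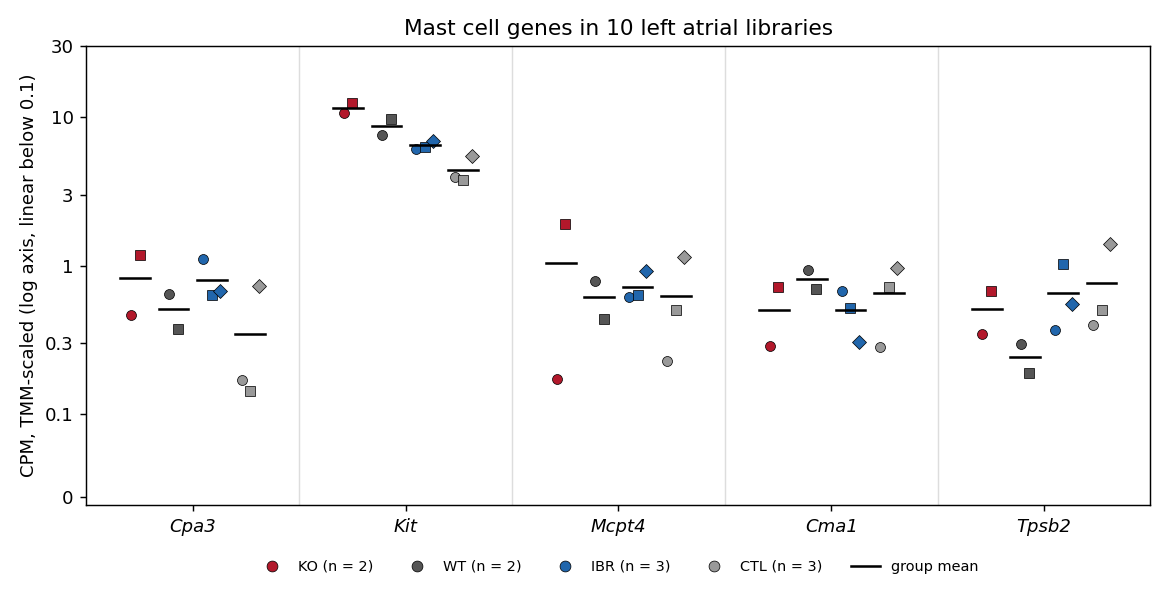
CPM of the 5 mast cell genes in each library, drawn as for the neutrophil genes (log axis, linear below 0.1 CPM; groups in the order KO, WT, IBR and CTL; bars at group means). Kit points of IBR lie at 6.04 to 6.91 CPM, above those of CTL at 3.75 to 5.43 CPM, while the proteases stay at or below 1.9 CPM with overlapping groups except for Tpsb2 in KO and WT.

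Over the whole set, 0 of the 10 members were called between KO and WT by edgeR at an adjusted p under 0.05, where 2.21% of all tested genes were called. At an unadjusted p under 0.05 there were 2, Csf3r and Cxcr2, where all tested genes gave 25.7%, and DESeq2 called 1 member, Csf3r, of the 8 to which it gave an adjusted p (Retnlg and Cxcr2 had none), where it called 1858 of 14470 genes. Both libraries labelled KO lay above both WT libraries for 6 of 10 members, where 26.3% of all tested genes did so. The median log2 difference was 2.66 over the 5 neutrophil genes and 0.68 over the 5 mast cell genes, and 0.01 over all tested genes. Between IBR and CTL, 0 of the 10 were called by edgeR or DESeq2, where edgeR called 0% of all tested genes. At an unadjusted p under 0.05 edgeR gave 1 member, Kit, where all tested genes gave 5.52%. The median log2 difference was -1.48 over the neutrophil genes, 0.2 over the mast cell genes and -0.03 over all tested genes.

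The drug effect and the genotype effect were also set against each other in 1 fit, as IBR effect minus KO effect. For the neutrophil genes this difference ran from -4.7 to -2.63 on the log2 scale with a median of -4.52, and for the mast cell genes from -1.29 to 0.5 with a median of 0.14. At an adjusted p under 0.05 edgeR called 0 of the 10 members, where 0.026% of all tested genes were called, and DESeq2 also called 0. At an unadjusted p under 0.05 edgeR gave 4 members, S100a9, Csf3r, Retnlg and Cxcr2, where all tested genes gave 9.79%, and 2 members without CTL2. Csf3r, with -2.63 ± 0.75 (log2, SE; edgeR unadjusted p = 0.00555, adjusted p = 0.36), was called without KO26 (-3.16, edgeR adjusted p = 0.0151).

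**Figure D4:**
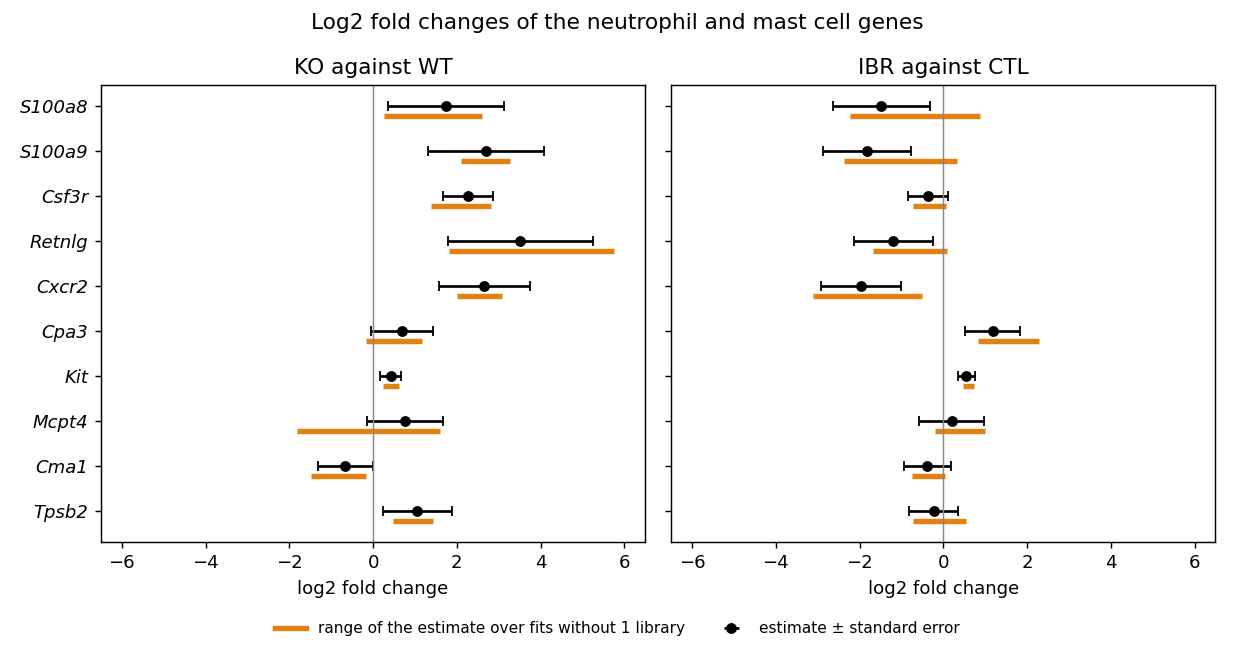
Log2 fold change of each member with its standard error (black) and the range of the estimate over fits that each left out 1 library (orange), for KO against WT (left) and IBR against CTL (right). In the right panel the orange bars of S100a8, S100a9, Csf3r, Retnlg, Mcpt4, Cma1 and Tpsb2 cross 0, and in the left panel those of Cpa3 and Mcpt4 do.

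The 33 other listed genes that were not tested included Mpo and Elane, granule genes of immature neutrophils. Between KO and WT, edgeR called 1 of the 34 tested genes higher and 0 lower, where 1.31% of all tested genes were called higher and 0.898% lower. This was Itgb2, which encodes the β2 integrin chain shared by all leukocytes, with 22.9 and 103 CPM in the libraries labelled KO and 7.82 and 8.49 CPM in WT (log2 2.95 ± 0.57, SE; edgeR adjusted p = 0.0404). That call was lost in 11 of 14 other settings, and the estimate was 1.47 without KO337 (edgeR adjusted p = 0.0711). Itgam, its partner chain on myeloid cells, had 20.4 and 80.3 CPM in the libraries labelled KO and 12.9 and 10.4 CPM in WT (log2 2.11 ± 0.53, SE; edgeR adjusted p = 0.0646). It was called in 2 of 14 other settings. All 10 tested genes of the neutrophil surface and signalling list had positive estimates, with a median of 2.11.

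The 5 tested granule genes were mixed in the same comparison, with 3 positive and 2 negative estimates and a median of 0.02. Mmp8, the neutrophil collagenase, had 0.174 and 1.54 CPM in the libraries labelled KO and 0.0989 and 0.0629 CPM in WT (edgeR adjusted p = 0.192). Mmp9, the gelatinase, went the other way by estimate, with 3.25 and 5.07 CPM in the libraries labelled KO and 8.76 and 9.49 CPM in WT (log2 -1.12 ± 0.29, SE; edgeR adjusted p = 0.0646). Of 14 other settings, 2 called Mmp9 and 1 called Mmp8. The 6 tested ligands and receptors had 3 positive and 3 negative estimates with a median of -0.06, among them the chemokine Cxcl5, with 0.871 and 10.8 CPM in the libraries labelled KO and 0.643 and 3.02 CPM in WT, and Csf3, with 0 and 0.86 CPM against 0 and 1.95 CPM. Cxcl5 was called in 1 of 14 other settings.

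Mast cell partners showed no call between KO and WT in the main edgeR fit. Fcer1g, the signalling chain of the IgE receptor that macrophages also make, had 14.9 and 67.8 CPM in the libraries labelled KO and 6.83 and 7.04 CPM in WT (log2 2.58 ± 0.58, SE; edgeR adjusted p = 0.0541). Hpgds, a prostaglandin D synthase, had 12.2 and 49.7 CPM in the libraries labelled KO and 8.36 and 10.6 CPM in WT (edgeR adjusted p = 0.0879), and the granule proteoglycan gene Srgn had 28.1 and 70.6 CPM against 22.1 and 24.9 CPM (edgeR adjusted p = 0.154). For these 3 genes KO337 was the high library, as it was for the macrophage genes. Of 14 other settings, 2 called Fcer1g, 2 called Hpgds and 1 called Srgn. The interleukin 33 receptor Il1rl1 had 2.21 and 2.9 CPM in the libraries labelled KO and 1.68 and 0.817 CPM in WT. Its ligand Il33 had 35.1 and 35.8 CPM in the libraries labelled KO and 22.4 and 149 CPM in WT, and Kitl, the Kit ligand, had 81 and 62.3 CPM against 120 and 54 CPM.

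Between IBR and CTL, edgeR called 0 of the 34, as it called 0% of all tested genes. Of all tested genes, 5.52% had an edgeR unadjusted p under 0.05, and of the 34 there was 1, Mmp9. It had 14.1, 10.3 and 11.8 CPM in IBR and 7.97, 5.19 and 6.22 CPM in CTL, without overlap (log2 0.9 ± 0.23, SE; edgeR unadjusted p = 0.00295, adjusted p = 0.823). Slc18a2, the vesicular amine transporter that loads histamine and serotonin, had 13.9, 9.99 and 12.8 CPM in IBR and 7.74, 7.35 and 10.6 CPM in CTL, which overlapped in 1 library of each group (log2 0.51 ± 0.25, SE; edgeR unadjusted p = 0.0632, adjusted p = 0.823). Mmp8, Trem1 and the decoy receptor Il1r2 peaked in CTL2, at 0.793, 0.721 and 1.51 CPM, as the neutrophil members did. The growth factors Kitl and Il33 had log2 differences of 0.16 ± 0.31 and 0.36 ± 0.57 (SE; edgeR adjusted p = 0.93 and 0.914). Gata2, a transcription factor of mast cells and endothelium, had 31, 35 and 37 CPM in IBR and 20.9, 22.9 and 40.3 CPM in CTL, Tlr4, a receptor for S100A8 and S100A9, had 14.1, 12 and 15.7 CPM against 8.71, 17.4 and 10.7 CPM, and Rab27b, a granule release GTPase, had 5.24, 4.54 and 5.99 CPM against 6.94, 5.84 and 5.61 CPM.

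Among the members, profiles were compared by the root mean square (RMS) difference of log2 CPM over the 10 libraries, after each gene was centred on its mean. S100a8 and S100a9 differed by an RMS of 0.56, S100a9 and Cxcr2 by 0.76, and S100a9 and Csf3r by 1.01. Cpa3 differed from Kit by 0.61, from Mcpt4 by 0.62, from Cma1 by 0.76 and from Tpsb2 by 0.84, where a gene with a flat profile would differ from Cpa3 by 0.74. Among 12447 other tested genes, those most like Cpa3 were Slco2a1 (RMS 0.25), a prostaglandin transporter, Islr (0.34), Art4 (0.34), Tspyl3 (0.35) and Loxl1 (0.35), a lysyl oxidase of elastic fibres. Slco2a1 had 16.9 and 38.5 CPM in the libraries labelled KO, 17.2 and 15.3 CPM in WT, 27.3, 16.2 and 21.8 CPM in IBR, and 10.2, 8.86 and 26 CPM in CTL, so CTL3 was its highest CTL library as it was for Cpa3. The search left out the members and took tested genes with an average log2 CPM of at least 0, so no other listed mast cell protease could enter it.

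The genes most like S100a9 were Rac3 (RMS 1), Slpi (1.07), a secreted inhibitor of neutrophil elastase, Il1b (1.09), the interleukin 1 beta gene, Lyz1 (1.11), a lysozyme, and Trib3 (1.12), against 1.5 for a flat profile. Il1b had 12.8 and 35 CPM in the libraries labelled KO, 1.83 and 1.63 CPM in WT, 5.61, 2.35 and 6.91 CPM in IBR, and 2.56, 6.05 and 3.38 CPM in CTL. It shared with S100a9 the high libraries labelled KO and the peak in CTL2 among CTL, but not the 7.41-fold step between CTL2 and the next CTL library. The members and these genes share libraries, depth and the KO337 excess, and at counts this low part of each profile is counting error.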

How the data were processed

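The authors deposited 1 file of unnormalized read counts by gene for each library. The submitters' processing notes name STAR, HTSeq, edgeR and the mm9 build; their versions are not given in the sources used. The library kit was directional and poly(A)-selected per the labels' protocols, while the deposited counts ignored strand per the names of the files, so overlapping genes cannot be told apart. The 5 summary lines per file stayed out of library sizes: 13.5% to 19.9% of records lay in no feature, 11.8% to 27.4% had no unique position and 3.14% to 3.99% were ambiguous.

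The 10 members and all lists were chosen with earlier results of these data known. Symbols came from a gene name table (32860 of 37583 identifiers matched). Counts were fitted with edgeR 4.0.16 (R 4.3.3, limma 3.58.1): filterByExpr (minimum count 10, total 15), TMM factors from 0.87 to 1.23, 1 mean per group over all 10 libraries with 6 residual degrees of freedom, robust glmQLFit, and Benjamini-Hochberg adjustment over 15364 genes, with calls at an adjusted p under 0.05. The common biological coefficient of variation was 0.221, against 0.169 in CTL with IBR and 0.294 in WT with KO. Standard errors were taken as a log2 difference divided by the root of its F statistic. The fit was tested on simulated data. Replicates of 1 group differed by more than sampling noise. The chi-square of their counts per degree of freedom was 140 between KO26 and KO337. For pairs within the other groups it was 14.7 to 39.4. Named beside the members were, per list and comparison, called genes and the 2 genes with the smallest p; likeness took the 5 nearest genes whose average log2 CPM, at a prior count of 2, was at least 0; members of marker lists named beside a result (such as Ptprc, Hbb-bs, Alas2, Mlana, Dct, Mpo, Ly6g and Fcer1a) were singled out after their values were seen. Alternatives were DESeq2 1.42.0, its scaling, no filter, each experiment alone, a replicate block and leaving out each library. Exon lengths and shared 50-base stretches came from GENCODE vM21 transcripts and promoters from RefSeq on GRCm38.p6 (9 of 10 members matched; Tpsb2 was not), used for lengths and sequence only.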

Additional observations from a re-analysis of the deposited data

Results flagged for a closer look

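Mmp9, which encodes a gelatinase of neutrophils and other cells, moved in opposite directions in the 2 experiments by estimate. It had 14.1, 10.3 and 11.8 CPM in IBR and 7.97, 5.19 and 6.22 CPM in CTL (log2 0.9 ± 0.23, SE), and 3.25 and 5.07 CPM in the libraries labelled KO and 8.76 and 9.49 CPM in WT (log2 -1.12 ± 0.29, SE). The drug effect minus the genotype effect was 2.02 ± 0.37 (log2, SE; edgeR unadjusted p = 0.000244, adjusted p = 0.208). Mmp9 was flagged because its groups did not overlap in either experiment and lay in opposite directions. The p-values of the difference come from those same values and are no separate support. How many of all tested genes meet this rule was not counted. That difference was past the adjusted threshold in only 3 of 13 other settings. These were no filter on low counts (2.11, edgeR adjusted p = 0.00417), DESeq2 (2.02, adjusted p = 0.000613) and the fit without KO26 (1.74). For this difference DESeq2 called 143 of all genes, against 4 in the main edgeR fit.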

How the results depend on the processing

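With 2 or 3 libraries per group, and members at 0 to 304 counts in a library, the counts limit what these tests can show. The number of all genes called between KO and WT was 339 in edgeR, 1146 with no filter on low counts, 1858 in DESeq2, 0 with each experiment fitted alone, and 14 to 3811 over the fits without 1 library. For IBR against CTL it was 0, with 2 genes by no filter, by DESeq2 and by the replicate block. For the difference of both effects it was 4, with 84 by no filter, 143 by DESeq2 and 0 to 1509 without 1 library (1509 without KO26). Libraries that moved the count of 339 by over 1.5 times were CTL1 (101 without it), CTL2 (121), CTL3 (163), IBR1 (100), IBR2 (154), IBR3 (19), WT35 (14), WT338 (16), KO26 (3811) and KO337 (48). Members called numbered 0 for IBR against CTL in every setting, 0 to 1 for KO against WT (1 by no filter, by DESeq2 and without KO26), and 0 to 1 for the difference of effects (1 without KO26). Same-numbered IBR and CTL libraries deviated together with correlations of 0.02, 0.16 and 0.03, and differently numbered ones with -0.2 to 0.18. With 3 libraries per group, these values cannot show whether the numbers pair the libraries. With the replicate block, 2 genes and 0 members were called.

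Over the fits without 1 library, IBR minus CTL (log2) ranged from -2.22 to 0.87 for S100a8, -2.37 to 0.33 for S100a9, -0.73 to 0.06 for Csf3r, -1.67 to 0.1 for Retnlg, -0.21 to 1 for Mcpt4, -0.75 to 0.03 for Cma1, -0.73 to 0.54 for Tpsb2, -2.98 to 0.04 for Mmp8, -2.86 to 0.04 for Trem1, -0.01 to 0.52 for Tlr4 and -0.12 to 0.32 for Kitl. KO minus WT ranged from -0.17 to 1.17 for Cpa3, -1.82 to 1.59 for Mcpt4, -1.05 to 3.17 for Cxcl5, -6.99 to 6.01 for Csf3, -2.08 to 0.66 for Il33 and -0.75 to 0.41 for Kitl. The difference of effects ranged from -0.06 to 0.34 for Kit, -1.39 to 2.04 for Mcpt4 and -0.2 to 1.14 for Cma1. The other members' estimates kept their sign in these fits, with the lowest for Cpa3 at 0 in the difference of effects. No scaling or filter alternative turned a member's sign.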
